A study of Mus musculus with 16 samples.

Results

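The kynurenine pathway enzymes are the proteins that break tryptophan down to kynurenine and its products, several of which bind the aryl hydrocarbon receptor (AhR). The 10 members were taken by gene name: Ido1, Tdo2, Afmid, Kmo, Kynu, Kyat1, Kyat3, Aadat, Got2 and Haao. All 10 were among the 38933 genes of the cortical bone table. Of the 21011 genes in the skeletal muscle table, 5 were members (Afmid, Haao, Kyat1, Kyat3 and Got2), and Ido1, Tdo2, Kmo, Kynu and Aadat were not listed. The mice were female C57BL/6, 18 months old when treatment began, and took the AhR antagonist BAY2416964 (BAY) or vehicle (VEH) by oral gavage. BAY was dosed at 30 mg/kg, 5 days per week, for 8 weeks, after which the tissues were taken. Each tissue had 4 VEH-treated and 4 BAY-treated mice with 1 library each, from the tibialis anterior muscle or from cortical bone shafts that had been digested with collagenase after marrow stromal cells were taken from them. No transgene or deleted gene is named for either group.

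Tryptophan enters the pathway through Ido1, which interferons induce in immune cells and endothelium, or through Tdo2, which is mainly a liver enzyme. Afmid, the formamidase, then releases kynurenine. From there Kmo, Kynu and Haao lead by way of hydroxykynurenine toward NAD, while the kynurenine aminotransferases Kyat1, Kyat3, Aadat and Got2 turn kynurenine into kynurenic acid. Skeletal muscle is known for its aminotransferases, which exercise raises through PGC-1α. Got2 is also the mitochondrial aspartate aminotransferase of the malate-aspartate shuttle. Kynurenine and kynurenic acid are both known AhR ligands.

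The values are CPM, the reads on a gene scaled by all reads counted on genes in that library. Reads on genes ranged from 6131935 to 9262405 per muscle library and from 930307 to 6951917 per bone library. A count of 3 reads, taken as the smallest level that the depth can show, equalled 0.324 to 0.489 CPM in muscle and 0.432 to 3.22 CPM in bone. Such limits cover counting error only. Muscle held its own markers: 7 of 7 muscle fibre genes summed to at least 97046 CPM in every muscle library. In bone 7 of 7 osteoblast and osteocyte genes were listed. These bone genes summed to between 949 and 21611 CPM in VEH-treated and between 1090.5 and 15362 CPM in BAY-treated bone. Muscle fibre genes summed to 22.6 to 6657 CPM in bone of VEH-treated mice and to 56.8 to 32452 CPM in BAY-treated mice, and 7 of 7 passed the test as higher, with overlapping groups and exact permutation P values of 0.2 to 0.314. In muscle, VEH replicate 3 stood apart, with 6 adipocyte genes summing to 322 CPM against 38.5 to 56.1 CPM in the other 7 libraries, and its column is named as a replacement. In bone, VEH replicate 1 was the deepest library and stood apart in most members, as given below. Tissue was bulk, so fewer cells of a type and less RNA per cell cannot be told apart.

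In tibialis anterior muscle, Got2 was the only member at a high level. In VEH-treated mice Got2 (ENSMUSG00000031672, mm39 chromosome 8, 96590762 to 96615175, minus strand) was at 158, 155, 211 and 161 CPM in replicates 1 to 4. In BAY-treated mice it was at 156, 192, 177 and 151 CPM. The groups overlapped, and the highest mouse was VEH replicate 3. The means were 171 ± 26.7 CPM in VEH and 169 ± 19.5 CPM in BAY (SD, n = 4 each).

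Kyat1 and Kyat3, the enzymes named for kynurenine transamination, stood near 5 CPM. Kyat1 (ENSMUSG00000039648, chromosome 2, 30075136 to 30095859) was at 3.72, 4.88, 4.86 and 5.37 CPM in VEH and at 5.37, 5.87, 5.16 and 5.05 CPM in BAY, from 32.0 to 45.0 reads per library. In VEH, 3 of 4 mice lay below all BAY mice and replicate 4 lay among them. Kyat3 (ENSMUSG00000040213, chromosome 3, 142406812 to 142452631) was at 2.21, 5.02, 6.91 and 3.82 CPM in VEH and at 5.23, 3.59, 3.74 and 3.93 CPM in BAY. Its VEH mice spread wider than its BAY mice, with the lowest and the highest of the 8 values both in VEH.

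The other members of the muscle table were close to the limit of detection. Afmid (chromosome 11, 117716750 to 117730734) was at 1.97, 0.71, 1.08 and 1.67 CPM in VEH and at 1.41, 0.33, 1.81 and 1.40 CPM in BAY, which rest on 2.0 to 16.9 reads per library. Haao (chromosome 17, 84138585 to 84155392), the dioxygenase that makes the precursor of quinolinic acid, had at most 2.0 reads in any muscle library and 10 reads in all, so no fold is given and its fitted values are not read as a change. The muscle table lists no gene with fewer than 5.0 reads over its 8 libraries. Ido1 and Tdo2, which start the pathway, and Kmo and Kynu, which follow kynurenine, are absent from it, which leaves room for a few reads each, and their muscle level was not compared.

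Members were put in order only by level per kb of exon, since CPM is not corrected for gene length. In muscle of VEH-treated mice Got2 was at 30.8 ± 4.79 CPM per kb, Kyat1 at 1.11 ± 0.16, Kyat3 at 0.45 ± 0.20, Afmid at 0.38 ± 0.16 and Haao at 0.039 ± 0.026 (SD, n = 4). The ranges of Got2 and Kyat1, of Kyat1 and Kyat3, and of Afmid and Haao did not overlap. Kyat3 and Afmid did overlap, and with the length of the longest transcript in place of all exons Kyat1 and Kyat3 overlapped too. Aadat, the other mitochondrial aminotransferase of kynurenine, was not listed, so the aminotransferases measured in muscle were 3.

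**Figure D1:**
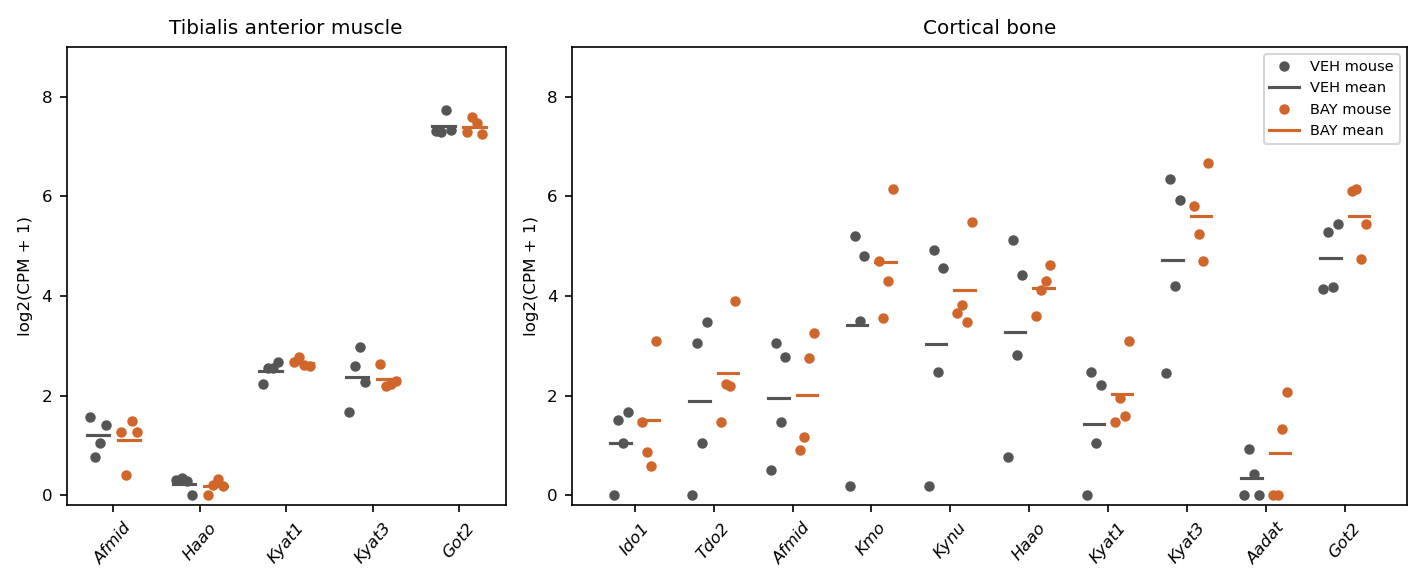
CPM of each member in every mouse, as log2(CPM + 1), for muscle and cortical bone, with VEH and BAY libraries side by side and bars at the group means. In muscle Got2 stands far above the other 4 listed members, and in bone VEH replicate 1 lies at or near the bottom for most members.

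No muscle member passed the test between BAY and VEH, and with 5 members a count of 0 is near the shares over all genes given here. The fit was limma on log2(CPM + 1), and the call required an unadjusted P value below 0.05 and at least a 2-fold change. None of the 5 members was called, where 52 of 21011 genes (0.247%) were. None passed at an unadjusted P value under 0.05 alone, against 10.3% of all genes, and none had groups that did not overlap, against 5.73%. With limma-voom on reads computed from the CPM steps, 0 of 5 were called, against 3.33%.

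The intervals show how large a change the 4 and 4 mice leave room for. For Got2 the BAY minus VEH difference was −0.02 on the log2 scale (SE 0.14, 95% interval −0.30 to 0.27), with P values of 0.98 in limma after adjustment and 0.914 by exact permutation. That interval spans from 0.81-fold to 1.21-fold. Kyat1 differed by 0.16 (SE 0.20, interval −0.26 to 0.58), with an exact permutation P value of 0.171. Kyat3 differed by −0.04 (SE 0.25, interval −0.56 to 0.49) and Afmid by −0.10 (SE 0.26, interval −0.64 to 0.44), with exact permutation P values of 0.914 and 0.743. Thus a 2-fold change of Got2, Kyat1 or Kyat3 lay outside its interval. The log2(CPM + 1) scale understates changes of genes near 1 CPM such as Afmid. Without VEH replicate 3, the difference of Got2 was 0.09 and that of Kyat3 was 0.17, so the sign turned in both.

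Reads of Got2 may be shared with its pseudogene Got2-ps1, since the authors' quantification divides reads that fit several genes. Got2-ps1 was listed at 75.6 to 89.0 CPM in VEH and 83.9 to 88.3 CPM in BAY muscle. The sum of both was 252 ± 32.6 CPM in VEH and 255 ± 18.9 CPM in BAY, a log2 difference of 0.02 (exact permutation P = 0.8). Summing turned the sign and left the difference well inside the spread between mice.

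In cortical bone all 10 members had reads, but in most of them the level moved with that of olfactory receptor genes. These receptors are best known from the olfactory epithelium, although single ones are known in other tissues, and as a family they served as a yardstick for each library. Over 1353 of these genes the level was 0.132, 7.52, 1.40 and 5.77 CPM per kb in VEH replicates 1 to 4 and 3.09, 2.64, 2.67 and 9.06 CPM per kb in BAY replicates 1 to 4. They took 0.0513% to 3.52% of all CPM in bone, and 0.00236% to 0.0033% in muscle, where 43 of them were listed. VEH replicate 1 was by far the lowest bone library, and BAY replicate 4 the highest.

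The entry enzymes lay below that yardstick in every bone library. Ido1 (ENSMUSG00000031551, chromosome 8, 25074152 to 25087025) was at 0, 1.84, 1.06 and 2.18 CPM in VEH and at 1.79, 0.83, 0.51 and 7.52 CPM in BAY. Tdo2 (ENSMUSG00000028011, chromosome 3, 81864397 to 81883509) was at 0, 7.36, 1.06 and 10.2 CPM in VEH and at 1.79, 3.72, 3.56 and 14.0 CPM in BAY. Both had 0 reads in VEH replicate 1 and were highest in BAY replicate 4, the libraries with the lowest and the highest olfactory receptor level. In the 7 libraries other than VEH replicate 1, the level per kb was 0.10 to 0.45 times that of the olfactory receptor genes for Ido1 and 0.14 to 0.44 times for Tdo2. Kyat1 (0.14 to 0.26 times), Afmid (0.081 to 0.60 times) and Aadat (0 to 0.18 times) were below it there too. Aadat (chromosome 8, 60958966 to 60998711) had at most 3 reads in any bone library, so no fold is given and its fitted values are not read as a change.

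The hydroxykynurenine arm was near the yardstick. Kmo (ENSMUSG00000039783, chromosome 1, 175447947 to 175489682), the monooxygenase, was at 0.14, 35.9, 10.3 and 26.9 CPM in VEH and at 25.0, 10.8, 18.8 and 69.9 CPM in BAY. Kynu (ENSMUSG00000026866, chromosome 2, 43445341 to 43572727), the kynureninase, was at 0.14, 29.5, 4.61 and 22.6 CPM in VEH and at 11.6, 13.2, 10.2 and 44.1 CPM in BAY. In VEH replicate 1 each of these rested on 1 read, although that library held 6951917 reads on genes. Haao was at 0.72, 34.1, 6.02 and 20.4 CPM in VEH and at 11.2, 16.5, 18.8 and 23.6 CPM in BAY, again with its lowest value in VEH replicate 1. Relative to olfactory receptor genes, the other 7 libraries held Kmo at 0.83 to 1.66 times, Haao at 0.557 to 1.504 times and Kynu at 0.49 to 0.75 times. With the longest transcript as length, Kmo reached 1.04 to 2.06 times and Kynu 1.17 to 1.78 times, so whether they exceeded it depended on the length used.

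By the summed level of the yardstick genes, Got2 and Kyat3 were the members that stood well above it in VEH replicate 1, where it was lowest. Got2 was at 16.7, 38.0, 17.1 and 42.9 CPM in VEH and at 68.2, 70.1, 25.9 and 42.7 CPM in BAY. Kyat3 was at 4.46, 81.0, 17.4 and 59.7 CPM in VEH and at 55.4, 37.2, 25.0 and 101 CPM in BAY. In VEH replicate 1 they rested on 116.2 and 31 reads, and their level per kb was 22.8 and 3.39 times that of the olfactory receptor genes. In the other 7 libraries it was 0.85 to 4.77 times for Got2 and 0.94 to 1.80 times for Kyat3. Haao was at 1.16 times in VEH replicate 1, on 5 reads. The median of the single olfactory receptor genes was lower in that library, at 0.0303 CPM per kb. By that median Got2 was at 99.0 times, Kyat3 at 14.7, Haao at 5.06 and Afmid, on 3 reads, at 3.98 times. Muscle fibre genes summed to 6657 CPM in VEH replicate 1, and their part in its Got2 level was not tested.

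**Figure D2:**
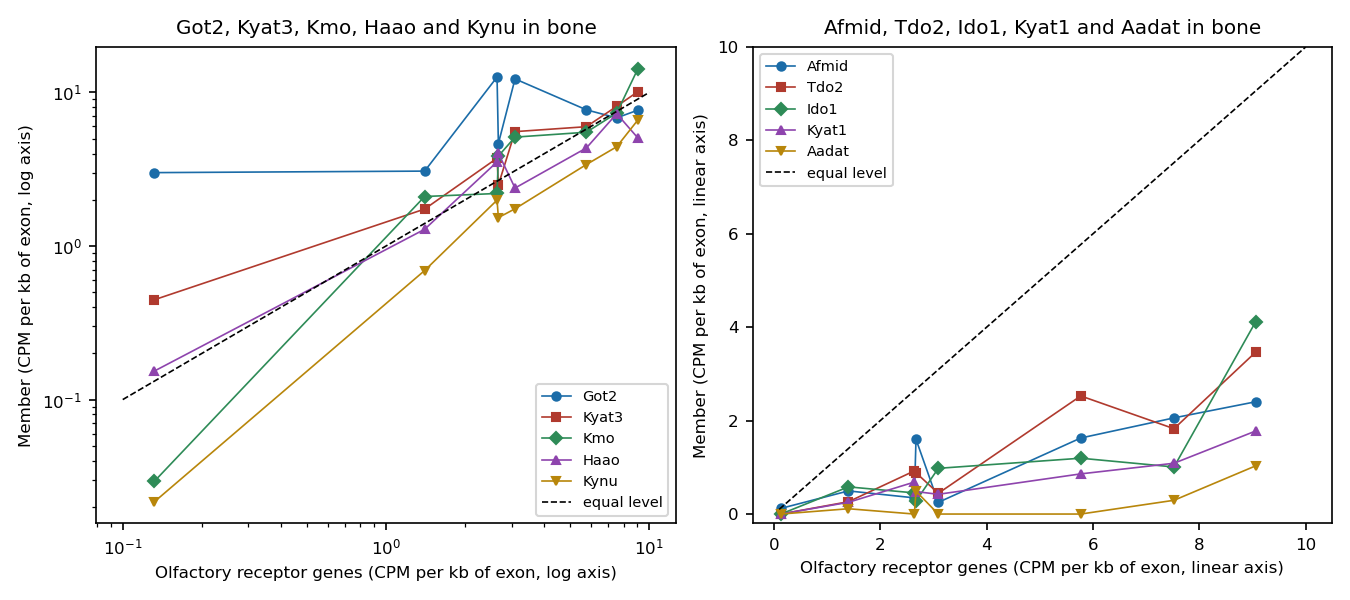
Level of each member (CPM per kb of exon) against the level of olfactory receptor genes in the same bone library, with lines joining the 8 libraries of a member in that order and a dashed line at equal level; the left panel has log axes and the right panel linear axes. Most members rise with the olfactory receptor level, and Got2 and Kyat3 lie well above the dashed line in the library at the far left, VEH replicate 1.

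By mean level per kb in VEH-treated bone the order was Got2 (5.15 ± 2.47 CPM per kb), Kyat3 (4.07 ± 3.59), Kmo (3.74 ± 3.29), Haao (3.26 ± 3.20), Kynu (2.13 ± 2.11), Tdo2 (1.16 ± 1.22), Afmid (1.08 ± 0.92), Ido1 (0.70 ± 0.53), Kyat1 (0.55 ± 0.51) and Aadat (0.10 ± 0.14; SD, n = 4). The ranges of all 9 neighbouring pairs overlapped, and with the longest transcript as length Kynu moved to the third place. VEH libraries differed widely in level, so the order was also read within each mouse. Haao was above Kynu and Kynu above Tdo2 in 4 of 4 VEH mice, whereas Got2 was above Kyat3, Kyat3 above Kmo, Kmo above Haao, Afmid above Ido1 and Kyat1 above Aadat in 3 of 4 each. Ido1 was above Kyat1 in 2 of 4, and Tdo2 was above Afmid in 1 of 4, against the order of their means. With the longest transcript Kynu was above Haao in 1 of 4. The bone and muscle tables were normalized apart, so their levels were not tested against each other.

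No bone member was called between BAY and VEH by limma on log2(CPM + 1). The count was 0 of 10, where 195 of 38933 genes (0.501%) were called. None passed at an unadjusted P value under 0.05 alone, against 0.503% of all genes, and none had groups that did not overlap, against 0.406%. All 10 fitted differences were above 0, with a median of 0.72 on the log2 scale, beside a median of 0.40 over all genes of the table. After median centring the median over all genes was −0.17, and Ido1, Tdo2, Afmid and Aadat turned below 0.

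On the log2(CPM + 1) scale Kmo and Kynu had the largest fitted differences, with wide intervals. Kmo was at 18.3 ± 16.1 CPM in VEH and 31.1 ± 26.5 CPM in BAY, a log2 difference of 1.25 (SE 0.84, 95% interval −0.40 to 2.91; exact permutation P = 0.457). Kynu was at 14.2 ± 14.1 CPM in VEH and 19.8 ± 16.2 CPM in BAY, a difference of 1.07 (SE 0.88, interval −0.65 to 2.80; exact permutation P = 0.457). The adjusted P value was 0.9996 in limma for every bone member. Haao differed by 0.88 (SE 0.85), Kyat3 by 0.88 (SE 0.75) and Got2 by 0.85 (SE 0.74), with exact permutation P values of 0.514, 0.457 and 0.143. Kyat1 differed by 0.60 (SE 0.85), Tdo2 by 0.56 (SE 0.93), Ido1 by 0.45 (SE 0.74) and Afmid by 0.07 (SE 0.90). The order depended on the scale. Kyat1, Tdo2 and Ido1 had 0 reads in VEH replicate 1. On the deposited log2 values they differed by 3.86, 3.84 and 3.42, above Kmo at 1.99 and Kynu at 1.82. With log2(CPM + 0.1) they differed by 1.37, 1.35 and 0.99, below Kmo at 1.80 and Kynu at 1.63. No member passed on either scale. The upper ends of the intervals reached 7.51-fold for Kmo and 3.60-fold for Afmid, so these libraries do not bound the bone members closely.

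The bone differences rested in part on VEH replicate 1. Without it, Kmo differed by 0.18, Kynu by 0.13, Haao by 0.05, Kyat1 and Kyat3 by 0.12 each, Ido1 by 0.10 and Got2 by 0.64, while Tdo2 and Afmid turned to −0.08 and −0.41. Limma-voom on the recovered reads called Kmo (2.98, unadjusted P = 0.0291) and Kynu (2.68, unadjusted P = 0.0487), 2 of 10 members, against 3.68% of all genes. Of the 1433 genes it called, 1431 were higher in BAY. The same fit without VEH replicate 1 called 393 genes, 201 higher and 192 lower, and 0 members, with Kmo at 0.18 and Kynu at 0.25. Leaving out VEH replicate 2 instead gave log2 differences of 1.85 for Kmo and 1.70 for Kynu (unadjusted P = 0.0247 and 0.0488 in limma) and 2903 called genes. Relative to the olfactory receptor level, the log2 difference was 0.83 for Kmo, 0.67 for Kynu, 0.04 for Haao, −0.21 for Kyat3, −0.28 for Got2 and −0.97 for Afmid, with exact permutation P values of 0.171 to 0.914. By this summed level the sign thus turned for Kyat3, Got2 and Afmid. VEH replicate 1 decided it for Kyat3 and Got2, which without that library stood at 0.19 and 0.73, while Kmo was at 0.25, Kynu at 0.23, Haao at 0.14 and Afmid at −0.57 (exact permutation P = 0.343 to 0.743). The olfactory receptor genes were measured in the same libraries, so any difference of theirs between BAY and VEH enters these ratios. Only their summed level was compared between groups. By their median, Haao was at 5.06, 1.06, 1.05 and 0.81 times in VEH and at 0.96, 1.53, 1.72 and 0.59 times in BAY, so its sign depends on the level used. The higher muscle fibre sum in BAY-treated bone came from BAY replicates 1 and 2, at 29271 and 32452 CPM, which were also the highest for Got2. BAY replicate 4, at 56.8 CPM, lay below VEH replicates 1, 2 and 3, and the part of these genes in the differences was not tested.

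**Figure D3:**
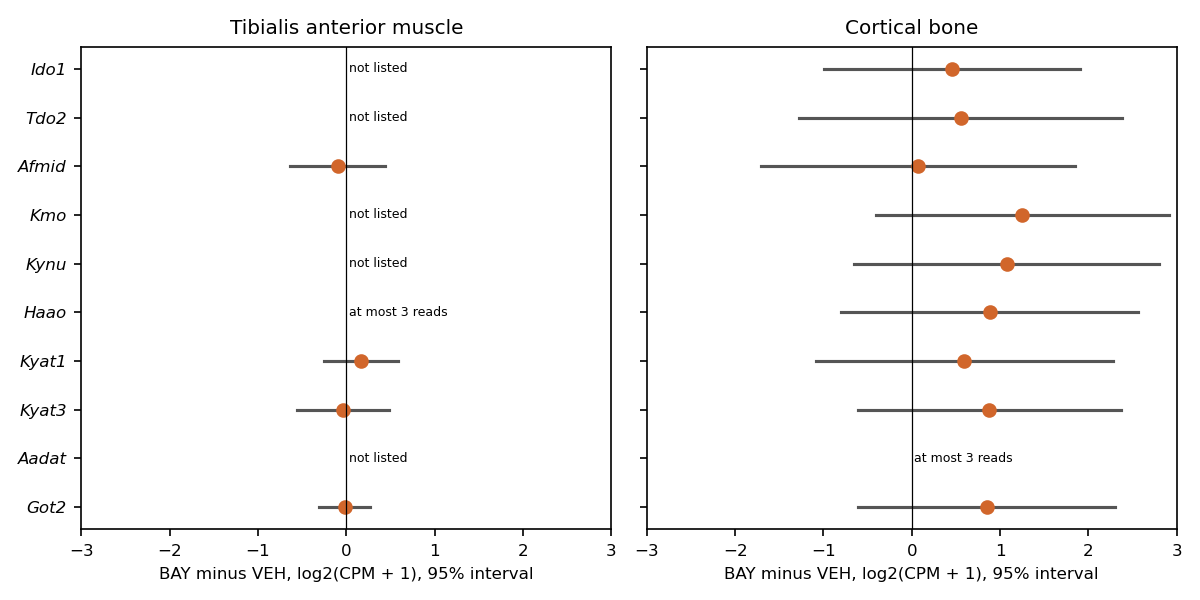
BAY minus VEH difference of each member on the log2(CPM + 1) scale with its 95% interval from limma, for muscle and cortical bone. The muscle intervals of Got2, Kyat1, Kyat3 and Afmid lie between −0.64 and 0.58, and for these 4 the bone interval is wider. Every bone interval drawn covers 0, and members at no more than 3 reads per library have none drawn.

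The BAY effect was also compared between tissues for 4 of the 5 members present in both tables, Haao being too low in muscle. The muscle effect minus the bone effect was −0.86 for Got2 (SE 0.53, 95% interval −1.96 to 0.23), −0.91 for Kyat3 (SE 0.87), −0.43 for Kyat1 (SE 0.78) and −0.17 for Afmid (SE 0.85). None passed (adjusted P = 0.99989 in limma for each), and 0 of 20526 genes passed at an adjusted P value under 0.05 while 175 had an unadjusted P value under 0.05. That fit shares 1 spread between muscle and the more variable bone libraries. From the separate fits of the tissues the SE would be larger for Got2 (0.75), Kyat1 (0.88) and Afmid (0.94) and smaller for Kyat3 (0.80), so the interval printed for Got2 is too narrow.

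The rest of the pathway was read from 8 lists of 43 other genes, for transport, NAD synthesis and salvage, other fates of tryptophan, interferon signalling, PGC-1 and PPAR regulators, the malate-aspartate shuttle and the kynurenic acid receptor Gpr35. In muscle 39 were listed, of which 1 (2.56%) rose and 0 fell at an unadjusted P value under 0.05, against 10.3% of all genes. The share was thus below that of the whole table. The median log2 difference was −0.02, beside 0.04 over all genes. In bone 43 were listed, 0 rose and 0 fell, against 0.503% of all genes, and the median was 0.44, beside 0.40 over all genes. The gene that rose in muscle was Slc7a8, a transporter of large neutral amino acids that include tryptophan. It was at 8.50, 9.76, 9.18 and 9.30 CPM in VEH and at 12.5, 11.1, 10.7 and 14.6 CPM in BAY. The groups did not overlap, and the log2 difference was 0.37 (SE 0.17), under 2-fold. The unadjusted P value in limma was 0.041, the adjusted one 0.462, and the exact permutation P value 0.0286, the smallest that 4 against 4 can give. Of the 39 genes, 3 had groups that did not overlap, against 5.73% of all genes. The others were Irf1, an interferon-induced factor, at 4.26 to 5.25 CPM in VEH and 5.42 to 7.99 CPM in BAY (log2 difference 0.39, SE 0.20), and Slc25a12. Neither passed in limma (unadjusted P = 0.0673 and 0.101), and both had an exact permutation P value of 0.0286.

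Genes that work next to Got2 or control the aminotransferases did not pass the limma test in muscle. The malate-aspartate shuttle list held 6 genes, of which 3 were fitted higher and 3 lower, and summed to 814 to 1019 CPM in VEH and 788 to 913 CPM in BAY. Slc25a12, the mitochondrial aspartate-glutamate carrier of that shuttle, was at 194, 211, 224 and 203 CPM in VEH and at 183, 189.7, 183 and 159 CPM in BAY. All 4 BAY mice lay below all 4 VEH mice, with a log2 difference of −0.22 (SE 0.13). The list also holds Got1, the cytosolic counterpart of Got2, at 150 to 211 CPM in VEH and 160 to 180 CPM in BAY. The 5 PGC-1 and PPAR regulators summed to 114 to 144 CPM in VEH and 130 to 147 CPM in BAY, and none passed. Among them Ppargc1a, which encodes PGC-1α, was at 37.7 ± 4.9 CPM in VEH and 37.3 ± 6.7 CPM in BAY. Gpr35 had at most 3 reads in any muscle library.

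**Figure D4:**
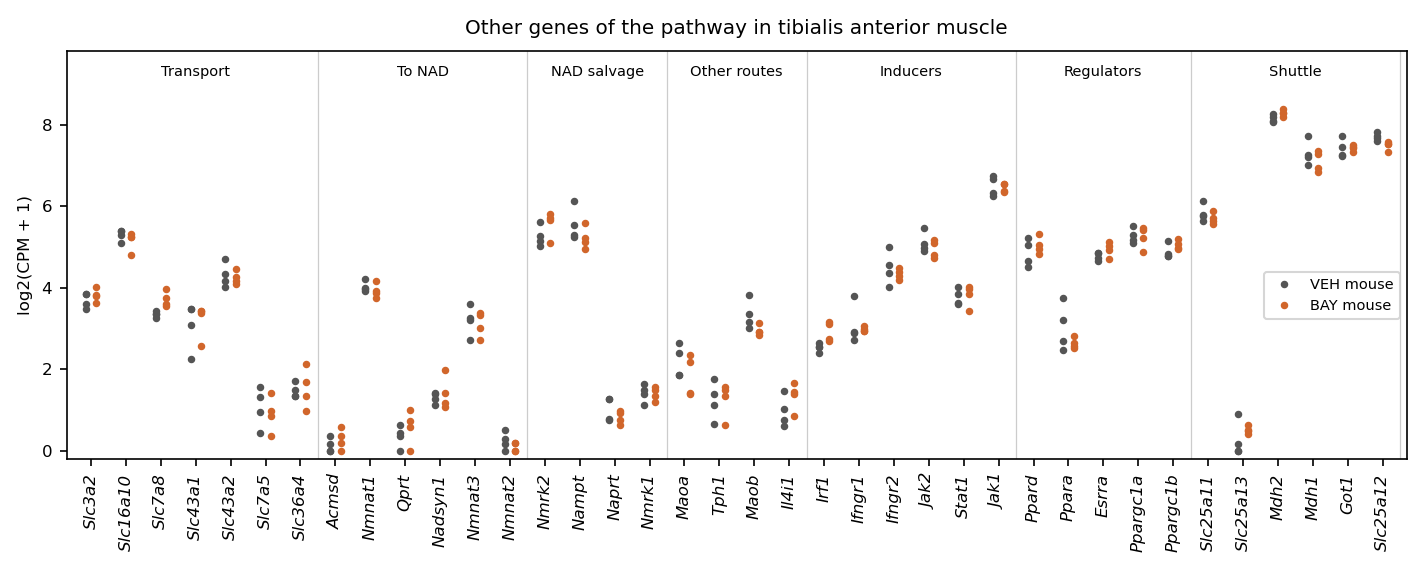
log2(CPM + 1) of the other pathway genes in each muscle library, grouped by list, with VEH and BAY mice as points of different colour. Among these genes Slc7a8, in the transport group, passed at an unadjusted P value under 0.05, with a difference under 2-fold and all 4 BAY mice above all 4 VEH mice. Irf1 and Slc25a12 also had groups that did not overlap.

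AhR itself and its classical target were read beside the enzymes, from a list of 7 genes of AhR, its partners and targets. In muscle 6 were listed, 2 were fitted higher, and 1 (Cyp1a1) passed at an unadjusted P value under 0.05, against 10.3% of all genes. In bone 7 were listed, 4 were fitted higher and 0 passed, against 0.503% of all genes. In muscle Cyp1a1 was at 1.05, 1.67, 1.08 and 1.19 CPM in VEH and at 0.55, 0.49, 0.65 and 0.28 CPM in BAY, with groups that did not overlap (exact permutation P = 0.0286). The means were 1.25 ± 0.29 and 0.49 ± 0.15 CPM (SD, n = 4 each), and the difference of −0.59 on the log2(CPM + 1) scale (SE 0.20) understates their ratio. Its P value in limma was 0.00772 unadjusted and 0.283 adjusted, and it had at most 12 reads per library. Ahr differed by −0.12 (SE 0.25; exact permutation P = 0.629). In bone the fitted differences were above 0, at 0.22 for Cyp1a1 (SE 0.94; exact permutation P = 0.829) and 0.66 for Ahr (SE 0.82; exact permutation P = 0.371), and neither passed. The mean of Cyp1a1 in bone was 7.33 ± 11.1 CPM in VEH and 5.83 ± 4.86 CPM in BAY (SD, n = 4 each), so its means and its log2 difference had opposite signs.

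The start regions of 3 aminotransferases are shown because AhR, the target of BAY, binds DNA at a core of GCGTG, and Cyp1a1 is shown as the classical target for contrast. Each is the 250 bases before the RefSeq gene start on assembly GRCm38.p6, read 5′ to 3′ along the gene. Capitals mark GCGTG or, where the core lies on the other strand, CACGC:
Got2, chr8:95888402-95888651, minus strand: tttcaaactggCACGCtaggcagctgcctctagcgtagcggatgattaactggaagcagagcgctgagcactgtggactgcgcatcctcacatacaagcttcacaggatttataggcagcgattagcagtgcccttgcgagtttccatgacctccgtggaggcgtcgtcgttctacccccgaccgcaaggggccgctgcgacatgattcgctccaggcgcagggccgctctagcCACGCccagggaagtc
Kyat1, chr2:30205848-30206097, minus strand: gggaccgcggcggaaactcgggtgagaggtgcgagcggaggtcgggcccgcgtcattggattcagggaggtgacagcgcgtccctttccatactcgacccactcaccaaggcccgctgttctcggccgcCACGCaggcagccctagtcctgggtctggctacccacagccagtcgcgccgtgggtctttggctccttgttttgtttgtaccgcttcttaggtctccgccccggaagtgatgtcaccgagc
Kyat3, chr3:142700798-142701047, plus strand: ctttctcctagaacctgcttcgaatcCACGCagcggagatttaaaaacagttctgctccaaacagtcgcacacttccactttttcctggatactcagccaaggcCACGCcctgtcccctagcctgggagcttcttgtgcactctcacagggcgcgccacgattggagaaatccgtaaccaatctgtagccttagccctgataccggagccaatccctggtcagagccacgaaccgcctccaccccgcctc
Cyp1a1, chr9:57697363-57697612, plus strand: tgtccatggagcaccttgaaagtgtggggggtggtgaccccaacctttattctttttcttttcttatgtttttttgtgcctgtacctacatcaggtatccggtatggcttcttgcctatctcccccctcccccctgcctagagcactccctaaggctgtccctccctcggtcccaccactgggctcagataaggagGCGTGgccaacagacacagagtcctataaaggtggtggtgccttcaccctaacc

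The core began 239 and 16 bases before the start in Got2, 121 in Kyat1, 224 and 146 in Kyat3 and 54 in Cyp1a1. Windows of 300 bases, from 250 before to 50 after the start, were available for 8 members, and 5 of them (Tdo2, Haao, Kyat1, Kyat3 and Got2), or 62.5%, held the core on either strand. Among all 32851 windows 32.4% held it. The letters are short, and hypoxia-inducible factors bind a core that overlaps them, so a match is only a description of the sequence. The windows of Afmid, Kmo and the aminotransferase Aadat did not hold these letters.

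The genes that varied most like the 3 highest muscle members were looked up over the 8 muscle libraries among the 8073 genes whose mean was 5 CPM or more. All these correlations rest on the same 8 libraries, VEH replicate 3 included, and are a description. Nearest to Got2 were Pex11a (Pearson r = 0.982), Rassf3 (0.967) and Cisd1 (0.959), and like Got2 all were highest in VEH replicate 3. Nearest to Kyat1 were Trim12a (0.961), Dda1 (0.924) and Atad2b (0.907). Nearest to Kyat3 were Gm9794 (0.968), Six4 (0.961) and Myadml2 (0.960), which were likewise highest in VEH replicate 3 and lowest in VEH replicate 1.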

How the data were processed

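Bulk RNA-seq of 8 tibialis anterior and 8 cortical bone libraries was analysed, grouped by tissue, treatment and replicate from the sample labels. The authors aligned trimmed reads with STAR (version 2.7.8a) to mm39, assigned them to Ensembl genes (Partek E/M), and deposited log2 of CPM plus an offset. From the smallest value, the offset was 0.0001 in bone and 0.0004 in muscle, which makes 1 read against 0 many log2 units. Log2 and offset were therefore undone and log2(CPM + 1) was used. The methods of the study name limma-voom with thresholds of 0.05 on the P value and 2 on the fold change.

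Each tissue was fitted apart, BAY against VEH, with limma (version 3.58.1, R version 4.3.3; lmFit and eBayes with trend, two-sided, no covariate, no filter), with Benjamini-Hochberg adjustment over all genes of the table. The tissues were contrasted in 1 fit of 16 libraries. Single genes were also tested by exact permutation of the 70 assignments of 8 libraries. P values set the group difference against the spread between libraries of a group, which holds mouse and library differences together. The steps between low values give the value of 1 read: 81.3% to 88.5% of values up to 50 reads were whole multiples to within 0.02. These reads were used for voom, as an alternative, and for depth. Lengths are the union of exons in GENCODE M39, or the longest transcript, while reads were counted on another release, so levels per kb are approximate. The olfactory receptor level is summed CPM over summed exon length. Other steps ran in Python 3.11.15 with numpy 2.4.6, scipy 1.17.1, pandas 2.3.3 and matplotlib 3.10.9. Promoter sequences are from RefSeq (GRCm38.p6) and were not placed on mm39. The fits were tested on simulated data.

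The members and gene lists were chosen with earlier results of these data known. The text names all members, every listed pathway gene with an unadjusted P value under 0.05, Ahr and Cyp1a1, and for the 3 muscle members highest per kb the 3 genes of highest correlation. Got1, Slc25a12, Irf1, Ppargc1a, Gpr35 and Got2-ps1 were named after their values were seen. Lists were also made of hepatocyte, macrophage, dendritic cell, adipocyte, neutrophil, bone, muscle fibre, erythroid and endothelial markers. Alternatives were the deposited log2 values, log2(CPM + 0.1), only genes with a mean of 1 CPM or more, median centring, quantile normalization, no trend, array weights, voom, a replicate block and each library left out. The ratio to olfactory receptor genes (also without bone VEH replicate 1), voom without bone VEH replicate 1 and the sum with Got2-ps1 were chosen after seeing the data. The labels do not tie a bone library to a muscle library of the same mouse.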

Additional observations from a re-analysis of the deposited data

Results flagged for a closer look

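Got2 in muscle of VEH replicate 3, at 211 CPM, was far from the other 3 VEH libraries. The gap to the nearest of them took 0.883 of the range of the group on the log2(CPM + 1) scale, above the limit of 0.829 for 4 samples. Of 30 groups of 4 looked at, 1 met this criterion, and chance gives about 1 in 20. The same library had the highest adipocyte gene sum, and its part in the Got2 value was not tested.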

How the results depend on the processing

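In bone, 195 genes were called (167 higher, 28 lower). The number was 122 with the filter, 89 with no trend, 484 with median centring (41 higher, 443 lower), 464 with quantile normalization (184 higher, 280 lower), 9307 with array weights (999 higher, 8308 lower), 1433 with voom and 393 with voom without VEH replicate 1. With each library left out it ranged from 100 to 2903. In muscle, 52 genes were called, and 510 with the deposited log2 values, 645 with log2(CPM + 0.1), 700 with voom and 44 to 82 with each library left out. Bone members under an unadjusted P value of 0.05 numbered 2 with voom (Kmo and Kynu), 2 with array weights (Tdo2 and Afmid, lower) and 0 to 2 with each library left out. With array weights the differences in bone reversed to −0.41 for Ido1, −1.37 for Tdo2, −1.33 for Afmid, −0.41 for Kmo, −0.67 for Kynu, −0.41 for Haao, −0.43 for Kyat1 and −0.34 for Kyat3, and in muscle to 0.10 for Kyat3 and 0.0416 for Got2. Median centring gave −0.12 for Ido1, −0.0183 for Tdo2, −0.50 for Afmid and −0.0639 for Aadat, and quantile normalization gave −0.43 for Afmid. Voom without VEH replicate 1 gave −0.0780 for Ido1 and −0.56 for Afmid. Relative to olfactory receptor genes the difference was −0.97 for Afmid, −0.21 for Kyat3 and −0.28 for Got2, and without VEH replicate 1 it was −0.57 for Afmid, 0.19 for Kyat3 and 0.73 for Got2. Summing with Got2-ps1 gave 0.0226 in muscle. With each library left out, the differences in bone were −0.0746 to 0.76 for Ido1, −0.0778 to 1.08 for Tdo2 and −0.41 to 0.44 for Afmid, and in muscle −0.24 to 0.14 for Afmid, −0.13 to 0.0114 for Haao, −0.27 to 0.17 for Kyat3 and −0.0805 to 0.0878 for Got2. The values of Haao in muscle (−0.05 with all libraries) and Aadat in bone (0.51 without centring) rest on at most 3 reads per library and are no measure of a change. With the replicate number as a block, 305 genes in bone, 54 in muscle and 0 members were called. Same-numbered libraries deviated together with correlations of −0.08 to 0.49 in bone and −0.10 to 0.04 in muscle. The labels give them only a shared number, and a shared batch was not tested. The cause of these changes was not tested. Afmid, Ido1, Kyat1, Tdo2 and Aadat had 14 reads or fewer in every bone library, so depth limits their values. The 1 read each of Kmo and Kynu in VEH replicate 1 came from the deepest bone library.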

Other observations

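Marker lists of other cell types were read beside the enzymes. In muscle, 4 of 6 adipocyte genes (Adipoq, Cidec, Plin1 and Cfd) were lower in BAY at an unadjusted P value under 0.05 in limma. Over all genes 10.3% passed that threshold in either direction. All 4 were highest in VEH replicate 3. Outside that library the adipocyte genes summed to 38.5 to 56.1 CPM in VEH and 41.4 to 49.7 CPM in BAY. Alb (log2 difference −0.58), the macrophage gene Itgam (−0.41) and the dendritic cell gene Cd209a (−0.37) were lower as well, each under 2 CPM in every library. Cdh5, an endothelial cadherin, was higher (0.30). Each was the only gene of its list to pass that threshold in muscle. Of the genes listed in muscle, 1 of 6 macrophage, 2 of 5 dendritic cell and 2 of 4 endothelial genes were fitted higher. Median log2 differences were −0.35, −0.026 and 0.0086. The dendritic cell genes summed to 10.47 to 13.52 CPM in VEH and 12.34 to 15.98 CPM in BAY muscle, so Cd209a does not stand for its list. None of the 6 neutrophil genes was listed in muscle, and Alb was the only hepatocyte gene listed. The erythroid genes summed to 83.8 to 173 CPM in VEH and 63.8 to 127 CPM in BAY muscle, and 0 of 5 passed.

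In bone, Ngp (neutrophil; −1.55), Col1a1 (−1.37), Dmp1 (−1.44) and Sost (−1.62) were lower in BAY at an unadjusted P value under 0.05 in limma. Their groups overlapped, the adjusted P value was 0.9996 for each, and exact permutation P values were 0.314 to 0.4. The 6 macrophage genes summed to 62.0 to 392 CPM in VEH and 36.2 to 350.0 CPM in BAY bone, and the 6 dendritic cell genes to 19.4 to 240.3 CPM and 96.4 to 243 CPM. Hepatocyte genes, of which Alb was not listed, summed to 0.14 to 37.7 CPM and 9.1 to 22.6 CPM. Of these 3 lists, the erythroid, the adipocyte and the endothelial one, 0 genes passed. Immune cells and liver are known sites of Ido1, Kmo and Tdo2, and the part of these cells in the bone levels of those members was not tested.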
